A study of Homo sapiens with 8 samples.

Results

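Genes for ribosome biogenesis and nucleolar proteins were followed in 8 RNA-seq libraries of LS174T, an established human colon adenocarcinoma cell line. The list named 36 genes, and their Ensembl identifiers were looked up by symbol. In the files 35 of the 36 matched; BOP1 did not and has no value. All 35 passed the filter on low values (at least 10 in at least 2 libraries), which left 22100 of the 57736 listed genes. The cells were LS174T derivatives with the Tet repressor and an inducible short hairpin RNA (shRNA), against the intestinal stem cell transcription factor ASCL2 in one line and against the long non-coding RNA WiNTRLINC1 in the other. The 4 groups were the ASCL2 line untreated, the ASCL2 line with doxycycline, the WiNTRLINC1 line untreated and the WiNTRLINC1 line with doxycycline, with 2 libraries each. Treated cells received doxycycline at 1 ug/ml for 3 days, and untreated cells grew for the same time without it. The WiNTRLINC1 line came from clones screened for knockdown by RT-PCR, and the ASCL2 line had been made for earlier work. The genotype label of every sample names the other target than its title and source name do, so the groups follow the titles. No cells without a hairpin received doxycycline, so effects of the drug and of the hairpin cannot be told apart. The 2 untreated groups are separate derivatives of one parent line, so a difference between them cannot be told apart from differences between clones, or from hairpin expressed without doxycycline.

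Ribosomes are assembled mostly in the nucleolus. RNA polymerase I transcribes the precursor of the large rRNAs, small nucleolar ribonucleoproteins (snoRNPs) guide its methylation and pseudouridylation, and assembly factors cut, fold and package it into the small and the large subunit. The load on this pathway follows growth rate, and the transcription factor MYC, a Wnt target in the colon, is known to activate many of its genes.

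Each value is a read count that the submitters scaled by a factor per library and rounded. Library totals lay between 21524463 and 22941231, and 31503 to 33959 genes were above 0 in each. ASCL2 itself read 2855 and 3373 in the untreated ASCL2 line and 532 and 586 with doxycycline, against 2540 and 2034 and then 805 and 697 in the WiNTRLINC1 line. It fell in both lines, so it does not settle which label is right. All 10 epithelial marker genes were at 10 or more in every library. Their summed level was 155195 to 167713 in the untreated ASCL2 line, 136804 to 149278 with doxycycline, and 106894 to 111109 and 104660 to 105175 in the untreated and treated WiNTRLINC1 line. Summed fibroblast markers ran from 94 to 304 (2 of 6 at 10 or more in every library), immune markers from 28 to 73 and endothelial markers from 13 to 33, and no matched marker was at 0 in every library. The part of these marker levels in the results was not tested. The labels do not say that replicates were separate cultures, so p-values measure how far these samples lie apart, and that spread may be technical.

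More of these genes were called between the 2 untreated lines than on doxycycline in either line. That order also held for all genes tested: 55.2% between the untreated lines, then 26.6% (ASCL2 line) and 18.6% (WiNTRLINC1 line) on doxycycline. Genes with a mean of 500 or more gave 69.1%, 45.2% and 32.5%, so the order is not particular to these genes. Of the 35 members 29 were higher and 2 lower in the untreated WiNTRLINC1 line than in the untreated ASCL2 line (88.6% called by limma at an adjusted p under 0.05). Among all 22100 genes tested 55.2% were called, 25.7% higher and 29.5% lower. Among the 8438 genes whose mean value was 500 or more, where these genes lie in level, 69.1% were called, 34% higher and 35.2% lower. The median log2 fold change was 0.73 over the members (range -1.19 to 1.80) and -0.04 over all genes. Together the members held 0.424% to 0.446% of the total value in the 4 libraries of the ASCL2 line and 0.747% to 0.871% in the 4 of the WiNTRLINC1 line. Without NCL and NPM1, the 2 members with the highest level per kilobase of coding length in the untreated WiNTRLINC1 line, these shares were 0.317% to 0.327% and 0.531% to 0.605%. In bulk RNA, a higher share of cells with high levels and more RNA per cell cannot be told apart.

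**Figure D1:**
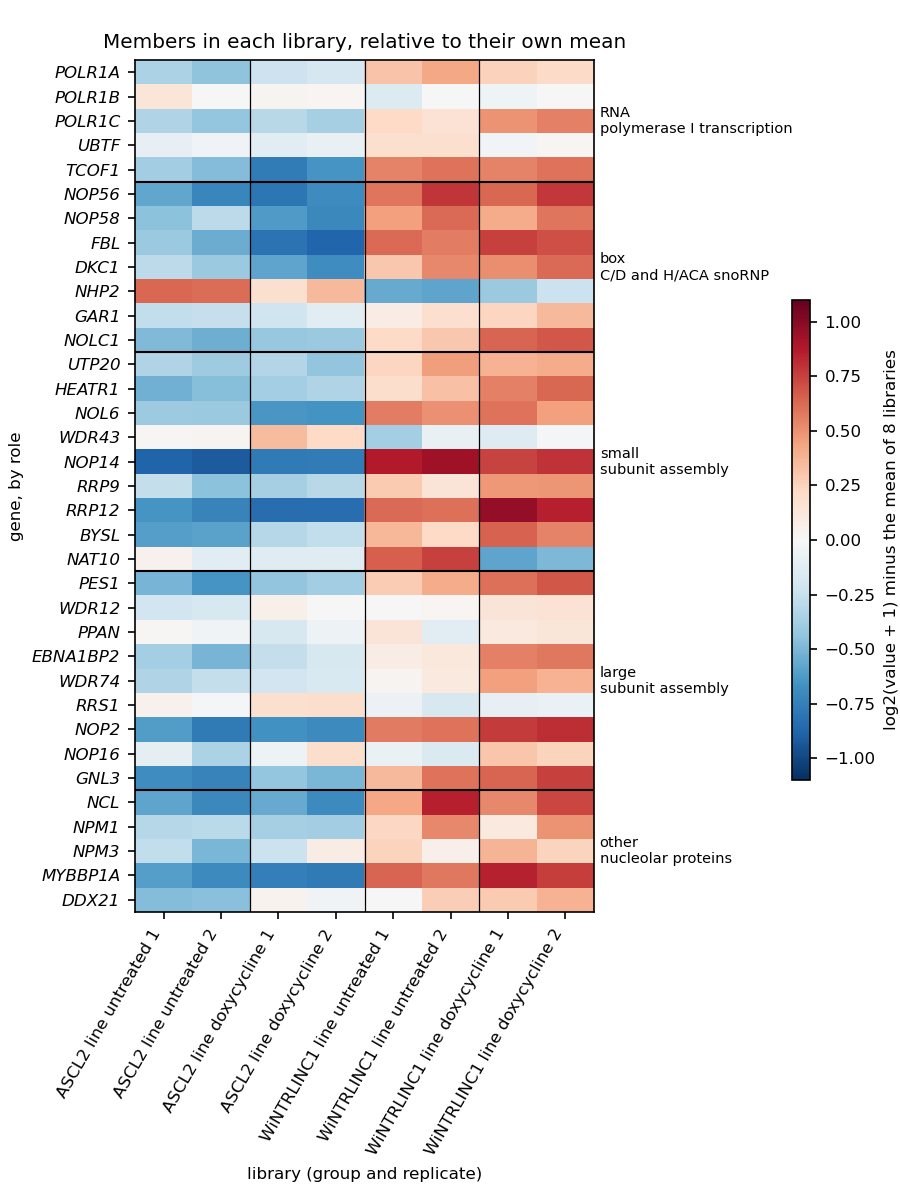
Heat map of the 35 members (rows, by role) in the 8 libraries (columns, by group and replicate). Colour is log2(value + 1) minus the gene's mean over the 8 libraries, so red is above and blue below that mean; most rows turn from blue in the ASCL2 line to red in the WiNTRLINC1 line, while NHP2 runs the other way and NAT10 turns blue with doxycycline in the WiNTRLINC1 line.

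**Figure D2:**
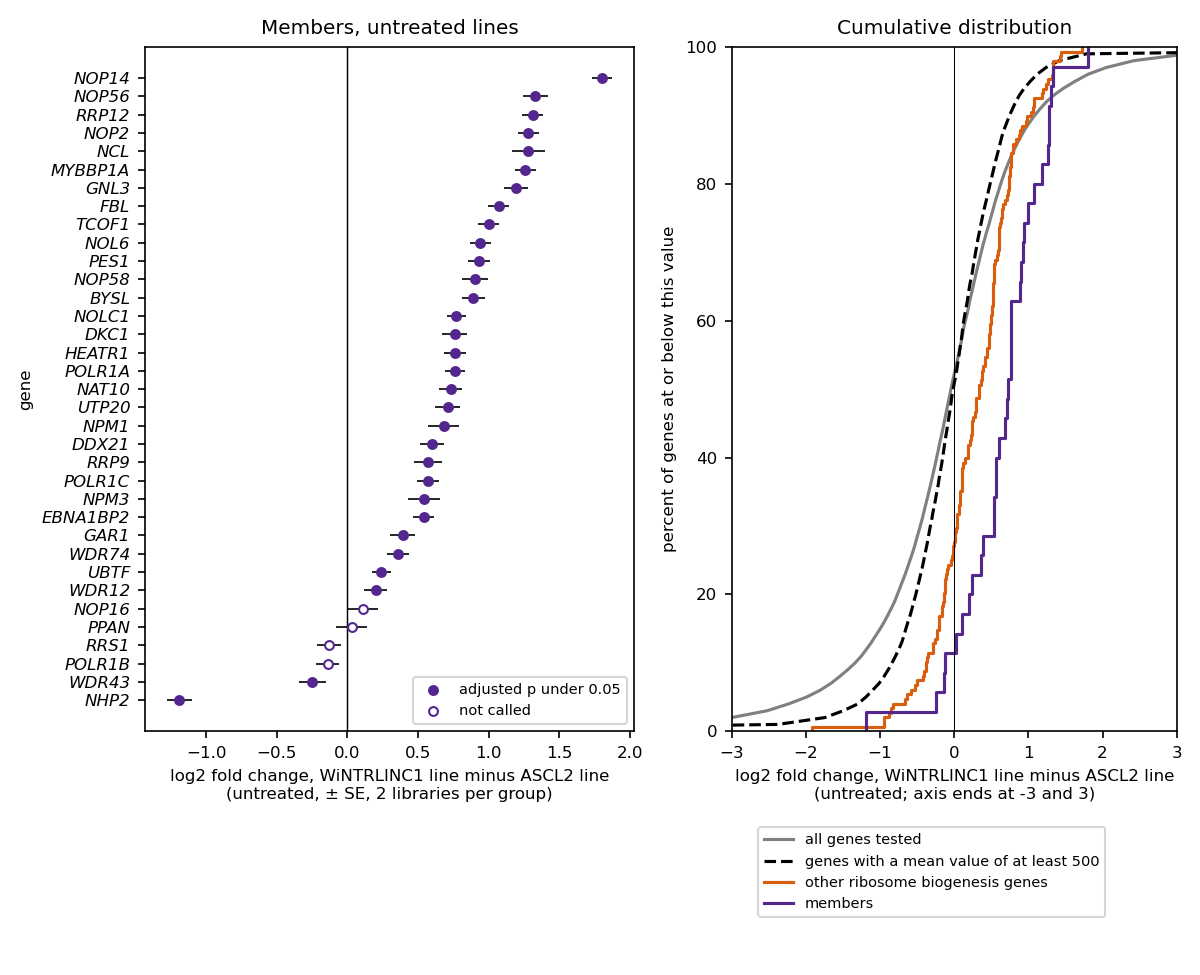
Left, log2 fold change of each member between the untreated lines (points, with bars of 1 standard error from limma; filled where the adjusted p was under 0.05). Right, percent of genes at or below each log2 fold change for all genes, genes with a mean of 500 or more, 148 other ribosome biogenesis genes and the members; the curve of the members lies to the right, with a median of 0.73.

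Of the 5 RNA polymerase I genes, 4 were higher in the untreated WiNTRLINC1 line (80%). Of genes with a mean of 500 or more 69.1% were called, 34% of them all higher and 35.2% lower. POLR1A, the largest subunit of the polymerase, read 3145 and 2959 in the ASCL2 line and 4989 and 5385 in the WiNTRLINC1 line, a log2 fold change of 0.76 ± 0.073 (SE; adjusted p = 4.69e-07). TCOF1, the treacle protein that works with the upstream binding factor on rDNA, read 2773 and 2604 against 5264 and 5487 (1.00 ± 0.074, adjusted p = 3.7e-08). The groups did not overlap for either gene. With 2 libraries per group such a gap can also arise without a difference, here and below. POLR1C, a subunit shared by RNA polymerases I and III, was 0.57 higher and UBTF, the upstream binding factor itself, 0.24 higher on the log2 scale. POLR1B, the second largest subunit, read 1851 and 1688 against 1523 and 1694, and its groups overlapped.

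The snoRNP genes held the member that went furthest down as well as some that went furthest up. NOP56, a core protein of box C/D snoRNPs, read 3793 and 3429 in the untreated ASCL2 line and 8485 and 9722 in the untreated WiNTRLINC1 line, 2.52-fold higher (log2 1.33 ± 0.086, adjusted p = 8.45e-09). FBL, fibrillarin, the methyltransferase of the same particles, read 5031 and 4564 against 10296 and 9885, 2.11-fold higher (1.07 ± 0.072, adjusted p = 1.26e-08). NOP58, the partner of NOP56, was 0.90 higher, DKC1, the pseudouridine synthase of H/ACA snoRNPs, 0.76, NOLC1, a nucleolar chaperone of snoRNPs, 0.77, and the H/ACA protein GAR1 0.39, all called. NHP2, another H/ACA core protein, went the other way. It read 2618 and 2594 in the untreated ASCL2 line and 1156 and 1135 in the untreated WiNTRLINC1 line, 2.27-fold lower (-1.19 ± 0.087, adjusted p = 3.32e-08). NHP2 has 2 pseudogene copies in the files, which held 23.5% of the summed value of gene and copies. With the copies added, as reads of near-identical sequence can be split between them, the difference was -0.81 (adjusted p = 2.25e-06). NHP2 also shares 414 exonic bases with RMND5B on the other strand, and whether strand was used in counting is not given in the sources used here.

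All 9 small subunit assembly genes differed between the untreated lines, 8 of them higher in the WiNTRLINC1 line (88.9%). Of genes with a mean of 500 or more 69.1% differed, and 34% were higher. NOP14, a factor of the early small subunit precursor, stood highest among all members, with 1275 and 1246 in the ASCL2 line and 4315 and 4500 in the WiNTRLINC1 line, 3.49-fold (1.80 ± 0.072, adjusted p = 5.11e-11). Its antisense gene NOP14-AS1 shares 605 exonic bases with it. RRP12, which serves precursor maturation and export, read 1244 and 1178 against 3017 and 2985 (1.31 ± 0.076, adjusted p = 2.67e-09). On the log2 scale NOL6, HEATR1 and UTP20, large proteins of the small subunit processome, were 0.94, 0.76 and 0.71 higher, and RRP9, a protein of the U3 snoRNP, 0.57. BYSL was 0.89 and NAT10 0.73 higher. WDR43, which links the processome to rDNA transcription, read 2460 and 2491 against 1885 and 2311, 0.25 lower by the means of the log values (-0.25 ± 0.095, adjusted p = 0.04). Its call rested on single libraries: it was lost without untreated replicate 1 of the WiNTRLINC1 line (-0.10, adjusted p = 0.422), or without either untreated library of the ASCL2 line (0.101 and 0.125).

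Among the 9 large subunit assembly genes 6 were higher and 0 lower. The share called, 66.7%, was near the 69.1% of genes with a mean of 500 or more, of which 34% were higher. NOP2, an rRNA cytosine methyltransferase, read 3301 and 2950 against 7514 and 7664 (1.28 ± 0.073, adjusted p = 2.12e-09), and GNL3, nucleostemin, 2079 and 2002 against 4273 and 5045 (1.19 ± 0.085, adjusted p = 2.49e-08). PES1, a partner of BOP1 and WDR12 in the PeBoW complex, was 0.93 higher. WDR12, its other partner, read 934 and 955 against 1078 and 1095, 0.20 higher (adjusted p = 0.0474), and lost its call without any 1 of the 8 libraries (adjusted p = 0.0594 to 0.139). The fold was 1.90 for PES1 and 1.15 for WDR12, and the difference between the genes was not tested. EBNA1BP2 was 0.54 and WDR74 0.36 higher. NOP16, PPAN and RRS1, further factors of the large subunit precursors, were not called, with log2 fold changes of 0.11, 0.03 and -0.13. PPAN shares 1447 exonic bases on the same strand with PPAN-P2RY11, which is listed separately. How reads in shared bases were assigned is not given, so the value of PPAN may be incomplete.

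The remaining nucleolar proteins were all higher, 5 of 5, against 34% of genes with a mean of 500 or more. NCL, nucleolin, the most abundant member in deposited value, read 17933 and 16368 in the untreated ASCL2 line and 35903 and 48313 in the untreated WiNTRLINC1 line (1.28 ± 0.116, adjusted p = 2.82e-07). NPM1, nucleophosmin, the nucleolar chaperone that organises the granular part of the nucleolus, read 8524 and 8605 against 12435 and 15235 (0.68 ± 0.111, adjusted p = 0.000103). In the WiNTRLINC1 line the second replicate was above the first for both genes, by 0.43 and 0.29 on the log2 scale in untreated cells and by 0.20 and 0.39 with doxycycline, a spread smaller than the difference between the lines. NPM1 has 49 pseudogene copies listed, 35 of them at 10 or more in 2 libraries, and the copies held 55.3% of the summed value of gene and copies. With the copies added its difference was 0.89 (adjusted p = 1.34e-05). MYBBP1A, a nucleolar protein that binds MYB, was 1.26, DDX21 0.60 and NPM3 0.54 higher.

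Levels can be compared between genes only per length. Per kilobase of coding sequence the mean value in the untreated ASCL2 line was highest for NPM1 (9710), then NCL (8052), NHP2 (5678) and FBL (4982), and lowest for UTP20 (144.6). In the untreated WiNTRLINC1 line the order was NCL (19770), NPM1 (15690) and FBL (10480), with NHP2 at 2496 and UTP20 again lowest (237.1). These levels leave out pseudogene copies. The copies of NPM1 held 55.3% of the summed value of gene and copies, so the place of NPM1 relative to NCL is not settled. So by coding length NHP2 stood above FBL in one line and far below it in the other. Untranslated exons are not in these lengths and how reads were counted is not given, so the order of genes is approximate.

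Promoter windows are shown for 4 members with unlike patterns: NOP56 and NCL, which were higher in the untreated WiNTRLINC1 line, NHP2, which was lower, and NAT10, which was higher there and fell with doxycycline. Windows came from RefSeq (GRCh38.p14) for 30 of the 36 members and hold the 250 bases before the annotated start, 5′ to 3′ on the gene's strand. Capitals mark CACGTG, the E-box bound by MYC and related factors, and GGGCGG on either strand, the GC box bound by Sp family factors. The windows are chr20:2652382-2652631 on the plus strand for NOP56, chr2:231464485-231464734 on the minus strand for NCL, chr5:178153886-178154135 on the minus strand for NHP2 and chr11:34105379-34105628 on the plus strand for NAT10.
NOP56: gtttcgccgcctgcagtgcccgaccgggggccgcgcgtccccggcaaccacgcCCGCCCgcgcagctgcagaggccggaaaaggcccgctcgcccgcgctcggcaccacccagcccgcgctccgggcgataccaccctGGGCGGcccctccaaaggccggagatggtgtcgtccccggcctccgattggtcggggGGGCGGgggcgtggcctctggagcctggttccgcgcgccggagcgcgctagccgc
NCL: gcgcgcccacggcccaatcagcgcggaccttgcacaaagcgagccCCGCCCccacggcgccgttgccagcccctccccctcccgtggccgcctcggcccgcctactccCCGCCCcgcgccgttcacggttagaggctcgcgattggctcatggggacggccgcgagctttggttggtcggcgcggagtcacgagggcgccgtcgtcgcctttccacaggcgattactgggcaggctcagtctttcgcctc
NHP2: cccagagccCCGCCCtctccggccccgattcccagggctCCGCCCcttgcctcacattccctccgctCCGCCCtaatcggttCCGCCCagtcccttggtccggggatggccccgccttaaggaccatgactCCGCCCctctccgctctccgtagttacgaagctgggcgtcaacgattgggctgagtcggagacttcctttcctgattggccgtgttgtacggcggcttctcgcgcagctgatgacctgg
NAT10: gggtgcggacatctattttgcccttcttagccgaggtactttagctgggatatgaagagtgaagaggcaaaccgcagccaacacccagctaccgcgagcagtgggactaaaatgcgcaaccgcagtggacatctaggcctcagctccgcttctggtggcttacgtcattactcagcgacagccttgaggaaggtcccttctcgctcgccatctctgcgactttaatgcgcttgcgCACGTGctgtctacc
The spans of NOP56, NOP58, DKC1, WDR43, PPAN, GNL3 and NCL also hold snoRNA genes. The NOP56 window holds 3 GC boxes, that of NCL 2 and that of NHP2 5. NOP56 and NCL thus shared this motif with NHP2, which was lower, while NAT10 did not. The NAT10 window has no GC box and 1 CACGTG, which ends 9 bases before the start. CACGTG, which reads the same on both strands, was in 3 of the 30 windows (10%; UTP20, NAT10 and DDX21) and in 6.28% of 27305 promoter windows of the same length. GC boxes on either strand were in 21 of 30 (70%) and in 41.3% of all windows. The related E-box CACGCG, searched on both strands, was in 4 of 30 (13.3%) and in 9.36% of all. In 131 windows of other pathway genes, listed below, the shares were 13.7% for CACGTG, 56.5% for GC boxes and 21.4% for CACGCG. The motifs were counted separately, and a window can hold more than one. A match describes the letters of the window and shows no binding. Bases after the start were not searched, so a window without a motif does not show that the gene lacks it.

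With doxycycline in the ASCL2 line 11 of the 35 members were called, 5 higher and 6 lower (31.4%), against 26.6% of all genes tested (13.9% higher, 12.7% lower) and 45.2% of genes with a mean of 500 or more (25.4% higher, 19.8% lower). The share is thus near the background and below that of genes of like level. The median log2 fold change of the members was 0.02, against 0.01 over all genes, and it ran from -0.36 to 0.47. The lower calls included 4 of the 7 snoRNP genes, and the higher ones 3 of the 9 large subunit genes. Among the 148 other pathway genes given below, 2 of 10 snoRNP genes were higher and 2 lower. Of the 54 large subunit genes there, 7 were higher and 10 lower. Under median scaling or quantile normalization the split of the members was 2 higher and 6 lower. The 3 higher large subunit members (EBNA1BP2, NOP16 and GNL3) were then no longer called (adjusted p = 0.0552 to 0.11).

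FBL read 5031 and 4564 untreated and 3812 and 3646 with doxycycline in the ASCL2 line (-0.36 ± 0.072, adjusted p = 0.00176). Both treated libraries lay below both untreated ones. NHP2 fell from 2618 and 2594 to 1910 and 2164 (-0.36 ± 0.087, adjusted p = 0.00698), NOP58 from 1456 and 1627 to 1289 and 1219 (-0.30 ± 0.092, adjusted p = 0.0269) and DKC1 from 3003 and 2771 to 2461 and 2288 (-0.28 ± 0.088, adjusted p = 0.0277). NOP56, the partner of NOP58 and FBL in box C/D particles, read 3793 and 3429, then 3254 and 3488, and its groups overlapped (-0.10 ± 0.086, adjusted p = 0.45). Outside the snoRNPs, TCOF1 fell from 2773 and 2604 to 2116 and 2306 (-0.28 ± 0.074, adjusted p = 0.0111), and NOL6, of the small subunit processome, from 2356 and 2340 to 1993 and 1968 (-0.25 ± 0.074, adjusted p = 0.0232).

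DDX21, a nucleolar RNA helicase, had the highest fold change among the 35 members in the ASCL2 line. It read 4486 and 4526 untreated and 6414 and 6089 with doxycycline, 1.39-fold (0.47 ± 0.086, adjusted p = 0.000862), with no overlap. BYSL, bystin, a late factor of the small subunit, rose from 1172 and 1180 to 1432 and 1472 (0.30 ± 0.080, adjusted p = 0.0112). EBNA1BP2 rose from 2442 and 2225 to 2649 and 2807 (0.23, adjusted p = 0.0358), NOP16 from 1246 and 1045 to 1281 and 1521 (0.29, adjusted p = 0.0498) and GNL3 from 2079 and 2002 to 2480 and 2348 (0.24, adjusted p = 0.0483). POLR1A read 3145 and 2959, then 3421 and 3529, without a call (0.19 ± 0.073, adjusted p = 0.0708). NCL and NPM1 moved by 0.02 ± 0.116 and -0.07 ± 0.111. NPM3, a small relative of NPM1, read 1206 and 1027, then 1230 and 1535, and was not called (0.30 ± 0.114, adjusted p = 0.0626).

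Many of these calls depended on 1 library. DDX21 and FBL were the members called in the ASCL2 line that kept their call without each library in turn. The count of called members was 6 without the second untreated library of the ASCL2 line, which lost NOP58, NOL6, EBNA1BP2, NOP16 and GNL3 (adjusted p = 0.0726 to 0.358). It was 5 without the first doxycycline library, which lost TCOF1, NOP58, DKC1, NHP2, NOL6, EBNA1BP2 and GNL3 (0.055 to 0.229), and 4 without the second, which lost NOP58, DKC1, NOL6, BYSL, EBNA1BP2, NOP16 and GNL3 (0.0796 to 0.398). Without the first untreated library TCOF1, DKC1, NOL6 and GNL3 were lost (0.0829 to 0.172). Leaving out a library of the WiNTRLINC1 line, which enters through the shared estimate of spread, lost NOP16 each time, and EBNA1BP2 and GNL3 where it was a doxycycline library (0.053 to 0.0693).

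**Figure D3:**
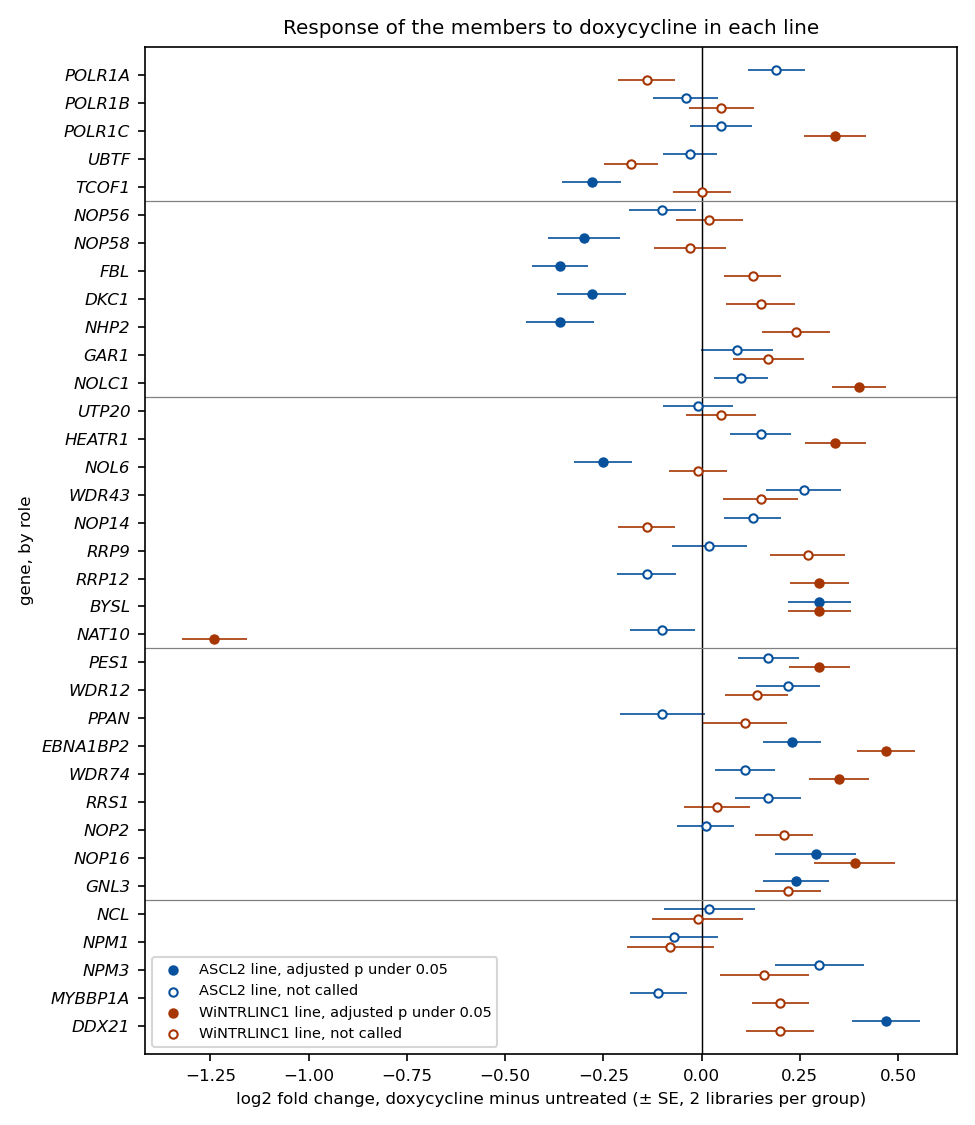
Log2 fold change of the 35 members with doxycycline in the ASCL2 line (blue) and the WiNTRLINC1 line (brown), by role, with bars of 1 standard error from limma and filled points where the adjusted p was under 0.05. Changes lie between -0.36 and 0.47 except for NAT10 in the WiNTRLINC1 line, at -1.24.

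With doxycycline in the WiNTRLINC1 line 10 members were called, 9 higher and 1 lower (28.6%), against 18.6% of all genes tested and 32.5% of genes with a mean of 500 or more. By direction, 25.7% of the members were higher and 2.86% lower, against 9.54% and 9.03% of all genes, and 17.1% and 15.4% of genes of that level. Their median log2 fold change was 0.15, against 0.01 over all genes. All 9 large subunit members had a fold change above 0, and 4 of them were called. So did 11191 of the 22100 genes tested and 4630 of the 8438 genes with a mean of 500 or more. Of 54 other large subunit genes, from the list of 148 pathway genes given below, 37 were above 0. Among those 54, 7 were called higher and 7 lower (median 0.11).

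The one member that fell, NAT10, also had the largest change of any member on doxycycline. NAT10 is the acetyltransferase that modifies cytidines of the small subunit rRNA. It read 2807 and 2994 in the untreated WiNTRLINC1 line and 1189 and 1269 with doxycycline, 2.36-fold lower (-1.24 ± 0.083, adjusted p = 1.59e-07). In the ASCL2 line it read 1842 and 1648, then 1628 and 1626, and was not called (-0.10 ± 0.083, adjusted p = 0.426). The treated WiNTRLINC1 libraries were therefore the lowest of all 8, below the ASCL2 line, although the untreated ones were the highest. NAT10 kept its call in all 18 alternative settings, with log2 fold changes of -1.29 to -1.19.

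EBNA1BP2, a large subunit factor, read 3355 and 3431 untreated and 4654 and 4743 with doxycycline, 1.38-fold (0.47 ± 0.074, adjusted p = 0.000405). It shares 668 exonic bases with CFAP57 on the other strand. NOLC1 rose from 9119 and 9661 to 12235 and 12623, 1.32-fold (0.40 ± 0.068, adjusted p = 0.000632). NAT10, EBNA1BP2 and NOLC1 were the 3 members called in all 18 settings. Both treated libraries of EBNA1BP2 and NOLC1 were the highest of the 8.

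Smaller rises were found for NOP16, from 1270 and 1196 to 1645 and 1581 (0.39 ± 0.103, adjusted p = 0.016), and for WDR74, which takes part in maturing the large subunit, from 1852 and 1956 to 2491 and 2375 (0.35 ± 0.077, adjusted p = 0.00468). POLR1C rose from 1826 and 1758 to 2212 and 2312 (0.34 ± 0.079, adjusted p = 0.0078) and HEATR1, of the small subunit processome, from 2273 and 2477 to 2908 and 3082 (0.34 ± 0.078, adjusted p = 0.00739). POLR1C shares exonic bases on the other strand with XPO5 (348), and HEATR1 with LGALS8 (2095). NOP16, WDR74, RRP12 and PES1 also overlap exons of other genes on the opposite strand. BYSL rose from 2290 and 2077 to 2788 and 2599 (0.30 ± 0.080, adjusted p = 0.0155), RRP12 from 3017 and 2985 to 3823 and 3547 (0.30 ± 0.076, adjusted p = 0.0136) and PES1 from 4487 and 4916 to 5638 and 5919 (0.30 ± 0.078, adjusted p = 0.0141). MYBBP1A read 5719 and 5462, then 6596 and 6218, a difference that missed the threshold (0.20 ± 0.073, adjusted p = 0.0766).

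Here too 1 library could decide a call. The count of called members was 6 without the first doxycycline library, which lost RRP12, BYSL, WDR74 and NOP16 (adjusted p = 0.0522 to 0.131), and 6 without the second, which lost POLR1C, HEATR1, PES1 and NOP16 (0.0659 to 0.121). Without the first untreated library HEATR1, RRP12 and PES1 were lost (0.0549 to 0.124), and without the second POLR1C, RRP12, BYSL and NOP16 (0.0527 to 0.126).

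**Figure D4:**
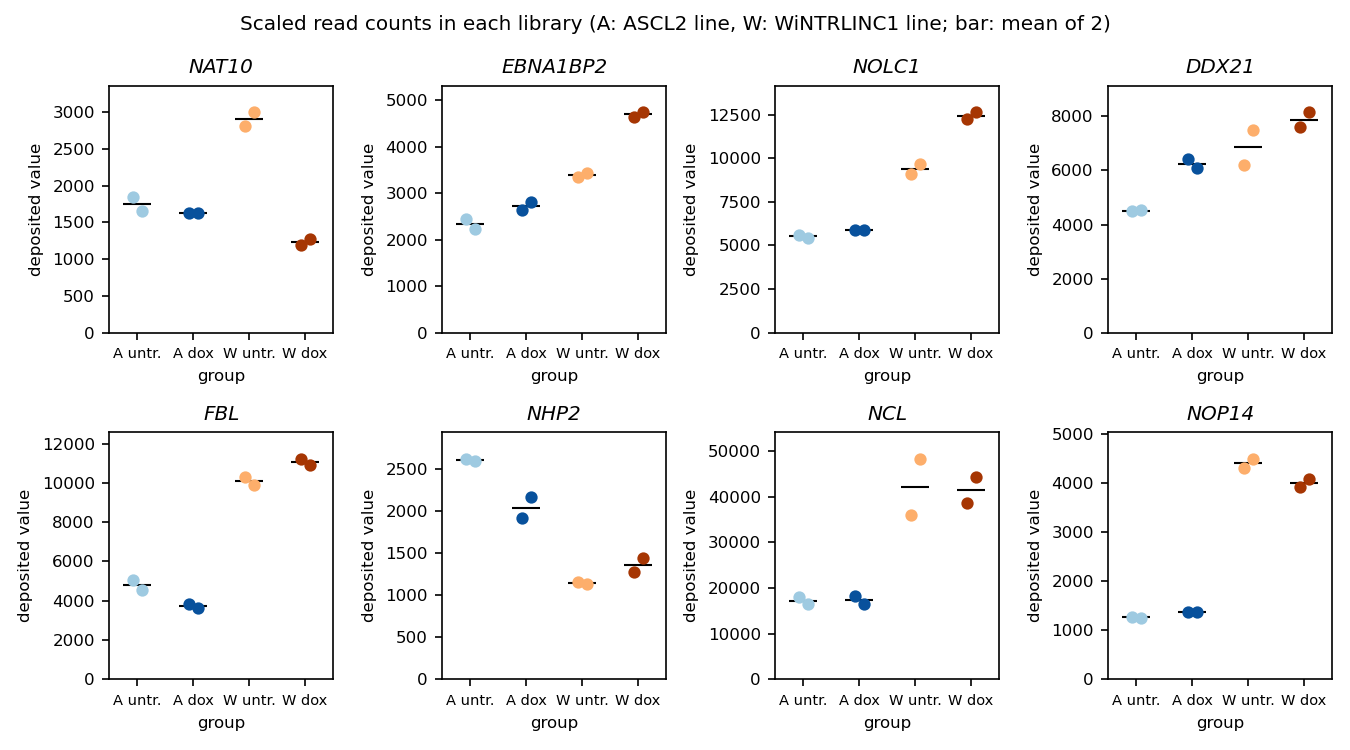
Deposited value of 8 members in each library (points) with the mean of 2 (bar), by group; A is the ASCL2 line, W the WiNTRLINC1 line, and axes start at 0. NAT10 falls from 2807 and 2994 to 1189 and 1269 in the WiNTRLINC1 line, FBL, NCL and NOP14 differ mainly between the lines, and NHP2 is lower in the WiNTRLINC1 line.

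BYSL, EBNA1BP2 and NOP16 were higher with doxycycline in both lines. These 3 were the members called in both comparisons, which share no library (8.57%). Of all genes tested 4.19% were higher in both lines, and of genes with a mean of 500 or more 8.34%, so the share of the members is near that of genes of their level. EBNA1BP2 and NOP16 lost the call in the ASCL2 line under median scaling and quantile normalization (adjusted p = 0.0552 to 0.11). Another 6 were higher and 1 lower only by call in the WiNTRLINC1 line, 2 higher and 6 lower only by call in the ASCL2 line, and 17 were called in neither (48.6%, against 63.9% of all genes and 40.1% of genes of that level). A call in one line and not the other shows no difference, so the difference of the responses was tested directly.

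The responses of 7 members differed between the lines, 5 of them higher and 2 lower in the WiNTRLINC1 line relative to the ASCL2 line (20%). Of all genes tested 15% did (7.39% higher, 7.6% lower), and of genes with a mean of 500 or more 26.9% (12.9% higher, 14% lower). NAT10 had the largest difference, -1.14 ± 0.117 for the WiNTRLINC1 line minus the ASCL2 line (adjusted p = 1.21e-05). FBL (0.50 ± 0.102, adjusted p = 0.00394) and NHP2 (0.60 ± 0.124, adjusted p = 0.00391) fell in the ASCL2 line, while in the WiNTRLINC1 line they read 0.13 and 0.24 without a call. DKC1 differed by 0.43 (adjusted p = 0.0281), RRP12 by 0.44 (adjusted p = 0.0119), NOLC1 by 0.31 (adjusted p = 0.0427) and POLR1A by -0.33 (adjusted p = 0.0443). Of the 7 snoRNP members 4 were thus called, each higher in the WiNTRLINC1 line relative to the ASCL2 line. Of 10 other snoRNP genes, from the list of 148 pathway genes given below, 0 were called for this difference (median -0.02). The difference for DDX21, -0.27 ± 0.121, was not called (adjusted p = 0.168). Without each library in turn NAT10, FBL and NHP2 kept this call. The count was 4 without doxycycline replicate 2 of the ASCL2 line, which lost POLR1A, DKC1 and NOLC1 (adjusted p = 0.101 to 0.137), 4 without the first doxycycline library of the WiNTRLINC1 line, which lost POLR1A, NOLC1 and RRP12 (0.0665 to 0.0902), and 4 without the second, which lost POLR1A, DKC1 and NOLC1 (0.121 to 0.139). POLR1A and NOLC1 were also lost without the first doxycycline library (0.0831 to 0.103) or the second untreated library (0.0606 to 0.124) of the ASCL2 line. DKC1 and NOLC1 were lost without the first untreated library of either line (0.107 to 0.115 for the ASCL2 line, 0.121 to 0.122 for the WiNTRLINC1 line), and POLR1A without the second of the WiNTRLINC1 line (0.137).

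MYC rose with doxycycline in both lines, from 4824 and 4927 to 7410 and 8135 in the ASCL2 line (0.67 ± 0.070, adjusted p = 7.12e-06) and from 5232 and 5333 to 6371 and 6498 in the WiNTRLINC1 line (0.28 ± 0.070, adjusted p = 0.0106). The rise was larger in the ASCL2 line (difference -0.39, adjusted p = 0.0156). Between the untreated lines MYC differed by 0.12 ± 0.070 (adjusted p = 0.18). Its part in the levels of the members was not tested. MYCN, a relative of MYC, was low, at 110 and 81, then 184 and 252 in the ASCL2 line and 64 and 59, then 171 and 163 in the WiNTRLINC1 line. It rose by 1.18 and 1.43 on the log2 scale (adjusted p = 0.000649 and 0.000186).

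A list of 148 other tested genes for rRNA transcription, processing and subunit assembly gave these counts. With doxycycline 21 were higher and 29 lower in the ASCL2 line (33.8% called, median 0.03), and 15 higher and 16 lower in the WiNTRLINC1 line (20.9%, median 0.09). Of all genes tested 26.6% and 18.6% were called, and of genes with a mean of 500 or more 45.2% and 32.5%. The responses of 27 listed genes differed between the lines, 18 higher and 9 lower in the WiNTRLINC1 line relative to the ASCL2 line (18.2%). The share was 15% of all genes tested and 26.9% of genes with a mean of 500 or more. Between the untreated lines 81 were higher and 18 lower in the WiNTRLINC1 line (66.9%, median 0.34). There 55.2% of all genes tested were called, and 69.1% of genes with a mean of 500 or more. The list's share of higher calls, 54.7%, lay between that of the members, 82.9%, and that of genes with a mean of 500 or more, 34%.

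Single genes of this list changed more on doxycycline than most members did. PNO1, a late small subunit factor, read 721 and 629 untreated and 252 and 284 with doxycycline in the ASCL2 line (-1.33 ± 0.108, adjusted p = 6.12e-07), and 718 and 710, then 678 and 709 in the WiNTRLINC1 line (-0.04 ± 0.108, adjusted p = 0.849). WDR18, a partner of PELP1 in large subunit maturation, fell in the other line. It read 1718 and 1653, then 1758 and 1874 in the ASCL2 line, and 1833 and 1469, then 585 and 498 in the WiNTRLINC1 line (-1.60 ± 0.108, adjusted p = 1.84e-07).

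In the ASCL2 line the other large falls were NVL, an ATPase of large subunit assembly (-0.89), POP5, of RNase P and RNase MRP (-0.89), and EXOSC9, an RNA exosome subunit (-0.79). The largest rises there were NOP10, an H/ACA core protein (0.63, from 1410 and 1402 to 1998 and 2362), MPHOSPH10 (0.58) and IMP4 (0.52), which form one small subunit complex, and DIMT1, an rRNA dimethyltransferase (0.50). NOP10 therefore rose in the line in which its H/ACA partners NHP2 and DKC1 fell, while GAR1 was not called there (0.09). The falls of NHP2 and DKC1 were called in 16 and 13 of 18 settings. In the WiNTRLINC1 line EXOSC6, also of the exosome (-1.14), FCF1, of the small subunit processome (-0.78), and RSL24D1, a large subunit factor (-0.65), fell after WDR18 in size. IMP4 (0.51), NOL7 (0.47), MAK16 (0.43) and DIMT1 (0.40) rose most. IMP4, DIMT1, NOL7 and MAK16 were called higher in both lines, POP5 lower in both (-0.54 in the WiNTRLINC1 line), and NVL was lower in the ASCL2 line and higher in the WiNTRLINC1 line (0.34 ± 0.111, adjusted p = 0.0469). The rise of NVL was called in 7 of 18 settings only and was lost without any of the 4 libraries of that line (adjusted p = 0.124 to 0.189) or either doxycycline library of the other (0.0606 and 0.0607), and under median scaling (0.0615) and quantile normalization (0.0777). Calls lost without 1 library were MPHOSPH10 (0.0809 without doxycycline replicate 1) and NOL7 (0.113 without untreated replicate 2, 0.0585 and 0.125 without doxycycline replicates 1 and 2) in the ASCL2 line. In the WiNTRLINC1 line they were NOL7 (0.0592 without doxycycline replicate 2), MAK16 (0.0664 without untreated replicate 1, 0.0655 without doxycycline replicate 2) and DIMT1 (0.0831 without untreated replicate 2, 0.0519 and 0.109 without doxycycline replicates 1 and 2).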

How the data were processed

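RNA of LS174T derivatives was fragmented with RNase III and sequenced on the Ion Proton, per the labels' protocols. The submitters' processing notes name cutadapt, TopHat2 2.0.9, Cufflinks and DESeq, and the builds hg19, GRCh37 and mm9 without a role. How reads were counted, and whether by strand, is not given in the sources used here. All deposited values are whole numbers and were treated as a score: gaps and pile-ups among the low whole numbers show counts scaled in each library and then rounded. Count models were therefore not used. Precision depends on read depth, which the scaled totals do not give, and on 2 libraries per group. Unused whole numbers from 3 to 100 numbered 16 in untreated replicate 1 of the ASCL2 line. They numbered 10 and 12 in untreated and doxycycline replicate 1 of the WiNTRLINC1 line, and 0 or 1 in the other libraries. The 2 libraries of each group lay further apart than counting noise (chi-square per degree of freedom 6.19 to 9.08), so none was merged.

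Of the 57736 Ensembl identifiers 39501 matched a symbol, and the rest held 2.34% of the values. The filter kept genes at 10 or more in 2 or more libraries. They were tested on the log2(value + 1) scale with limma 3.58.1 (R 4.3.3) and its mean-variance trend, on all 8 libraries and 4 groups (4 residual degrees of freedom and 10.5 from the prior). This scale understates changes of low genes. P-values were adjusted by Benjamini-Hochberg over 22100 genes, and a gene was called at an adjusted p under 0.05. The method was tested on simulated data. The 4 contrasts were doxycycline minus untreated in each line, their difference, and the untreated lines, the last sharing libraries with the other 3. The members and lists were chosen with earlier results of these data known. Values are given for members called in both lines, for up to 3 per role with the largest change on doxycycline, and for NCL, NPM1 and FBL, with further members named beside them. Of 152 other pathway genes, 148 matched, and up to 4 per direction and line with the largest called change are named. GENCODE version 29 gave coding lengths and overlaps, and RefSeq (GRCh38.p14) the promoters. The 18 alternative settings (17 for the difference) covered pseudocount, filters, scaling, trend, replicate block, pseudogene copies, the libraries fitted and each library left out.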

Additional observations from a re-analysis of the deposited data

Results flagged for a closer look

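The difference between the responses of the lines (WiNTRLINC1 line minus ASCL2 line, log2 scale) was tested by limma over all genes. It passed the threshold for 7 members and for 27 of the 148 genes of the wider list (18.2%). Of all genes tested 15% passed, and of genes with a mean of 500 or more 26.9%. Of the 27, the 7 named for their large change on doxycycline are given here. Among the members the values were -0.33 for POLR1A, 0.50 for FBL, 0.43 for DKC1, 0.60 for NHP2, 0.31 for NOLC1, 0.44 for RRP12 and -1.14 for NAT10. In the wider list PNO1 differed by 1.29 (adjusted p = 4.43e-05), NVL by 1.23 (adjusted p = 7.99e-05) and EXOSC9 by 0.80 (adjusted p = 0.000433), each lower with doxycycline in the ASCL2 line. WDR18 differed by -1.71 (adjusted p = 4.4e-06), EXOSC6 by -0.97 (adjusted p = 0.00155), FCF1 by -0.96 (adjusted p = 0.00018) and RSL24D1 by -0.86 (adjusted p = 0.00166), each lower with doxycycline in the WiNTRLINC1 line.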

How the results depend on the processing

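No member changed direction past the threshold under any of the 18 settings (17 for the difference of the responses). Between the untreated lines 29 of the 31 called members kept their call in every setting, the exceptions being WDR43 and WDR12. Calls on doxycycline were less stable: 1 of 11 for the ASCL2 line (DDX21), 3 of 10 for the WiNTRLINC1 line and 1 of 7 for the difference (NAT10) held in every setting. Without the filter on low values 5 members were called in the ASCL2 line, 4 for the difference, and 2395 genes for the WiNTRLINC1 line and 1914 for the difference. Without the mean-variance trend 1 member and 3410 genes were called for the ASCL2 line, 3 and 1873 for the WiNTRLINC1 line, and 1 and 1313 for the difference. Leaving out 1 library gave 4 to 11 members and 3665 to 5862 genes for the ASCL2 line, 6 to 11 and 2398 to 4131 for the WiNTRLINC1 line, 4 to 6 and 2315 to 2891 for the difference, and 29 to 30 and 10458 to 12002 between the untreated lines. The lowest gene count was without the second doxycycline library of the line in question (3665 and 2398); the WiNTRLINC1 line also gave 2709 without its first untreated and 2706 without its first doxycycline library. The members' median ran from 0.06 to 0.18 for the difference and from 0.64 to 0.82 between the untreated lines. Other scalings moved the median of all genes by less than 0.1.

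Same-numbered replicates did not deviate together throughout (correlation of replicate 2 minus replicate 1 over 8438 genes 0.445 within the WiNTRLINC1 line, -0.193 within the ASCL2 line), so the numbers were not taken as pairs. With a replicate block 11, 11, 8 and 30 members were called for the ASCL2 line, the WiNTRLINC1 line, the difference and the untreated lines, and 6148, 4298, 3511 and 12398 genes. With the block crossed in the ASCL2 line, an alternative chosen after seeing the data like the adding of pseudogene copies, the members called were 16, 17, 11 and 31. With 2 libraries per group, members with log2 fold changes on doxycycline between 0.23 and 0.30 lay on both sides of the threshold.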

Other observations

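Genes of the wider list, chosen here after their values were seen, marked the ends of its range between the untreated lines. PDCD11, a scaffold of the small subunit processome, read 1677 and 1723 in the untreated ASCL2 line and 5491 and 5684 in the untreated WiNTRLINC1 line (log2 1.72 ± 0.071, adjusted p = 7.4e-11). TAF1C, a subunit of the RNA polymerase I selectivity factor, read 737 and 738 against 2054 and 1941 (1.44 ± 0.089, adjusted p = 5.15e-09). NPM2, a relative of NPM1 known from oocytes, was lower, at 129 and 133 against 31 and 37 (-1.92 ± 0.241, adjusted p = 8.47e-06). By role, 35 of 54 large subunit genes were higher and 4 lower in the WiNTRLINC1 line (64.8% and 7.41%). Small subunit genes were 23 higher and 3 lower of 47, and RNA polymerase I genes 6 and 0 of 11. The snoRNP genes were 5 higher and 2 lower of 10, and other nucleolar proteins 3 and 1 of 4. Exosome and pre-rRNA cleavage genes were split, 9 higher and 8 lower of 22 (40.9% and 36.4%). That is near the 34% higher and 35.2% lower of genes with a mean of 500 or more.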
